A study of Mus musculus with 10 samples.

Results

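Axon guidance genes were compared in the hippocampus of C57BL/6 mice that lack the thyrotropin receptor gene (genotype Tshr-/-) and of wild-type mice of the same strain, both aged 3 months. The members are the protein-coding genes of the class 3 to 6 semaphorins, plexins, neuropilins, Eph receptors, ephrins, Slits, Robo receptors, netrins 1 to 5, Unc5 receptors and Dcc whose mean level reached 0.5 FPKM, a read number scaled to gene length and library depth. Of 67 protein-coding genes with such names, 63 reached the limit, among 52636 genes in the table and 15471 that were tested. There were 5 libraries per genotype. The labels give the genotype of each library and name no other treatment, and they do not say whether a library holds 1 mouse, whether littermates were compared or which part of the receptor gene is deleted. The p-values therefore measure the spread between these libraries, which may in part be technical.

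Guidance molecules steer growing axons by attraction or repulsion, and in the adult brain many of them stay on at synapses, in vessels and in glia. Secreted class 3 semaphorins signal through neuropilins paired with A plexins, while membrane-bound semaphorins bind plexins directly. Ephrins sit on cell membranes, the A class by a lipid anchor and the B class by a membrane-spanning segment, and bind Eph receptor tyrosine kinases on neighbouring cells. Slits act through Robo receptors. Netrins act through Dcc for attraction and through Unc5 receptors for repulsion. In the hippocampus these families are known for sorting the mossy fibre and entorhinal projections and for shaping dendritic spines.

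Depth and tissue content of the libraries bear on all that follows. Rebuilt read numbers came to between 23899650 and 33529811 per library, and a member had from 23 to 14381 reads in a library. Tshr had 0 to 5 reads in a Tshr-/- library and 2 to 12 in a wild-type library, too few to check the labels. Defining markers of dentate granule neurons (C1ql2, Stxbp6 and Prox1), of CA1 pyramidal neurons (Mpped1, Fibcd1 and Pou3f1) and of CA3 and CA2 neurons (Dkk3, Bok and Rgs14) were present in every library. Markers of neighbouring tissue were present too and differed between libraries. As background for the marker counts, 53.3% of all tested genes were lower in Tshr-/- by sign. At an unadjusted p below 0.05, 8.38% were lower and 4.65% higher. The thalamus and habenula list summed to 50.2 to 313 FPKM in Tshr-/- and 39.8 to 169 in wild type, with all 15 tested genes higher in Tshr-/-, 1 of them at an unadjusted p below 0.05, and Gbx2 at 0 in some libraries. Its means stood highest in Tshr-/- libraries 1 and 2 and wild-type libraries 2 and 5. The choroid plexus list summed to 7.08 to 2275 FPKM in Tshr-/-, where library 4 held the highest value, and to 5.35 to 91.5 in wild type, with 8 of 9 tested genes higher and Kcne2 at 0 in some libraries. All 11 dentate granule markers were lower in Tshr-/-, 7 of them at an unadjusted p below 0.05, with sums of 89.1 to 136 FPKM against 142 to 195. For CA1 markers 7 of 8 were lower, 4 at an unadjusted p below 0.05, with sums of 125 to 207 against 182 to 252. CA3 and CA2 markers were mixed, with 6 of 10 lower and 4 higher, 2 and 1 of them at an unadjusted p below 0.05 (sums 247 to 308 against 289 to 335). Of 10 neocortex genes 7 were higher, 1 at an unadjusted p below 0.05 (sums 56.3 to 111 against 64.7 to 86.2). The 8 tested meningeal genes were all higher in Tshr-/-, 4 at an unadjusted p below 0.05 (sums 14.2 to 46.5 against 8.27 to 20.6 FPKM), and 7 of 9 interneuron genes were lower, 3 at an unadjusted p below 0.05. All 7 ependymal genes were higher, 2 at an unadjusted p below 0.05 (sums 7.99 to 29.0 against 7.27 to 14.8 FPKM), as were 6 of 8 striatal genes, 2 at an unadjusted p below 0.05 (36.4 to 59.4 against 34.8 to 52.1). In whole tissue, fewer cells of a type and less RNA per cell cannot be told apart.

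The families were expressed at very different levels. Over all libraries the highest means were those of the semaphorin Sema6b at 96.0 FPKM, the ephrin Efnb3 at 57.8, the receptor Epha4 at 49.4, the netrin receptor Unc5a at 44.3, the ligand Slit1 at 42.5 and the ephrin Efna3 at 41.9. The ranges over libraries of Efnb3, Epha4, Unc5a, Slit1 and Efna3 overlapped one another, and that of Sema6b, 75.1 to 127 FPKM, lay above them. Netrins and Dcc were low, with Ntn4 at 2.35, Ntn1 at 1.98, Ntn5 at 1.74 and Dcc at 2.46 FPKM. Closest above the limit were Sema3d at 0.703 and Sema3b at 0.859 FPKM, and closest below it were Epha2 at 0.449 and Efna4 at 0.351. Sema3a and Epha1, at 0.264 and 0.144 FPKM, were below it as well. Members lay on 19 chromosomes, and their median level of 6.21 FPKM was near the 5.05 of all tested genes.

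**Figure D1:**
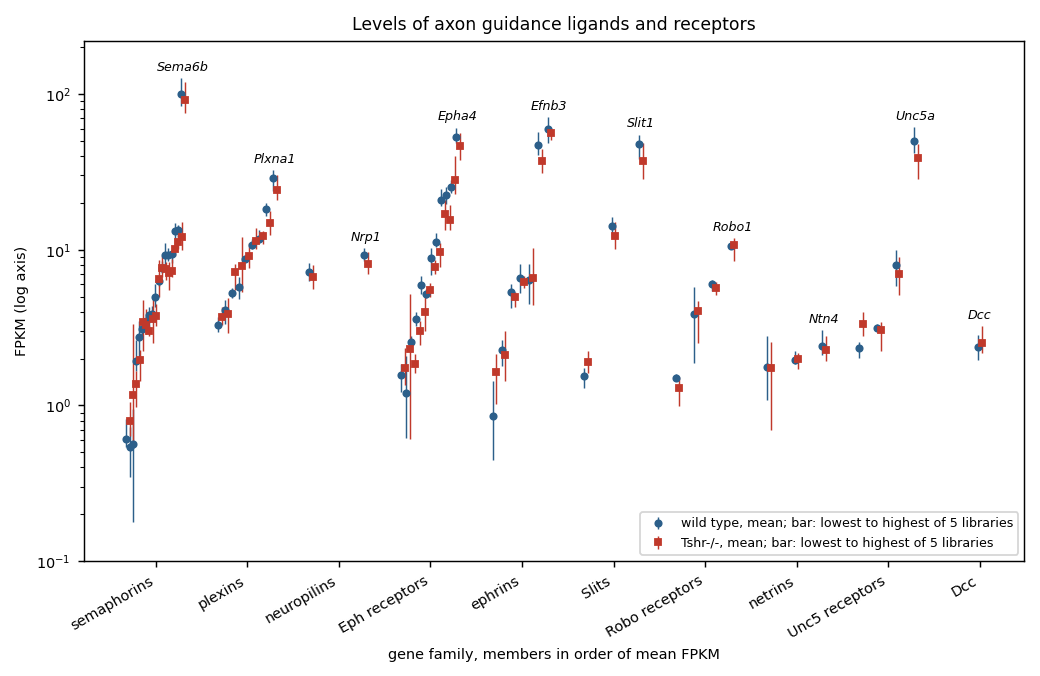
FPKM on a log axis of the 63 members by family. Circles are the wild-type mean and squares the Tshr-/- mean, each over 5 libraries, and bars run from the lowest to the highest library; the highest member of each family is named, from Sema6b at 96.0 FPKM down to Ntn4 at 2.35.

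Differences are given throughout as the Tshr-/- mean less the wild-type mean of log2(FPKM + 0.1). Whether guidance genes differ between the genotypes was asked with the test made over all 15471 genes. No member passed it. Limma called 0 of 63 at an adjusted p below 0.05, against 0.0129% of all tested genes (2 genes), and limma voom on the rebuilt reads also called 0, with 14 lower and 9 higher at an unadjusted p below 0.05. By limma without adjustment, 15 members (23.8%) with a p below 0.05 were lower in Tshr-/- and 6 (9.52%) higher, where the background over all tested genes was 8.38% lower and 4.65% higher. Among protein-coding genes alone the background was 9.17% lower and 4.66% higher. The count of 15 changed with the library left out. It was 6 without Tshr-/- library 1 and 5 without Tshr-/- library 2 (6.06% and 6.14% of all tested genes). Without wild-type libraries 1, 3 and 4 it was 6, 7 and 9 (5.32%, 5.88% and 7.98%). In these fits the share over all tested genes fell as well, from 8.38%. Without Tshr-/- libraries 3, 4 and 5 the count was 16, 14 and 11. Without wild-type libraries 2 and 5 it was 16 and 13. For those removals the share over all tested genes lay between 8.002% and 10.13%. The count of 6 lay between 5 and 8 without any single library. The median difference was -0.07 over the members and -0.01 over all tested genes, and 36 members were lower and 27 higher.

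At an unadjusted p below 0.05, the 32 receptors held 9 of the 15 lower members and the 31 ligands 6. By sign alone, 18 receptors and 18 ligands were lower. Over all tested genes 8.38% were lower and 4.65% higher at that p, which is also the background for the counts by family below. Among the 6 higher members, 4 were ligands (Sema3f, Sema4a, Efna5 and Slit2) and 2 were receptors (Unc5d and Plxnc1). The Eph receptors had the most lower members at an unadjusted p below 0.05, 6 of 12, and none that was higher at that p. By sign alone 8 of the 12 Eph receptors and 9 of the 18 semaphorins were lower. Levels of the genotypes did not overlap for 3 members that were lower (Epha3, Epha7 and Ephb3, 4.76% of members against a background of 1.76%) and 2 that were higher (Unc5d and Sema3f, 3.17% against 0.911%).

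**Figure D2:**
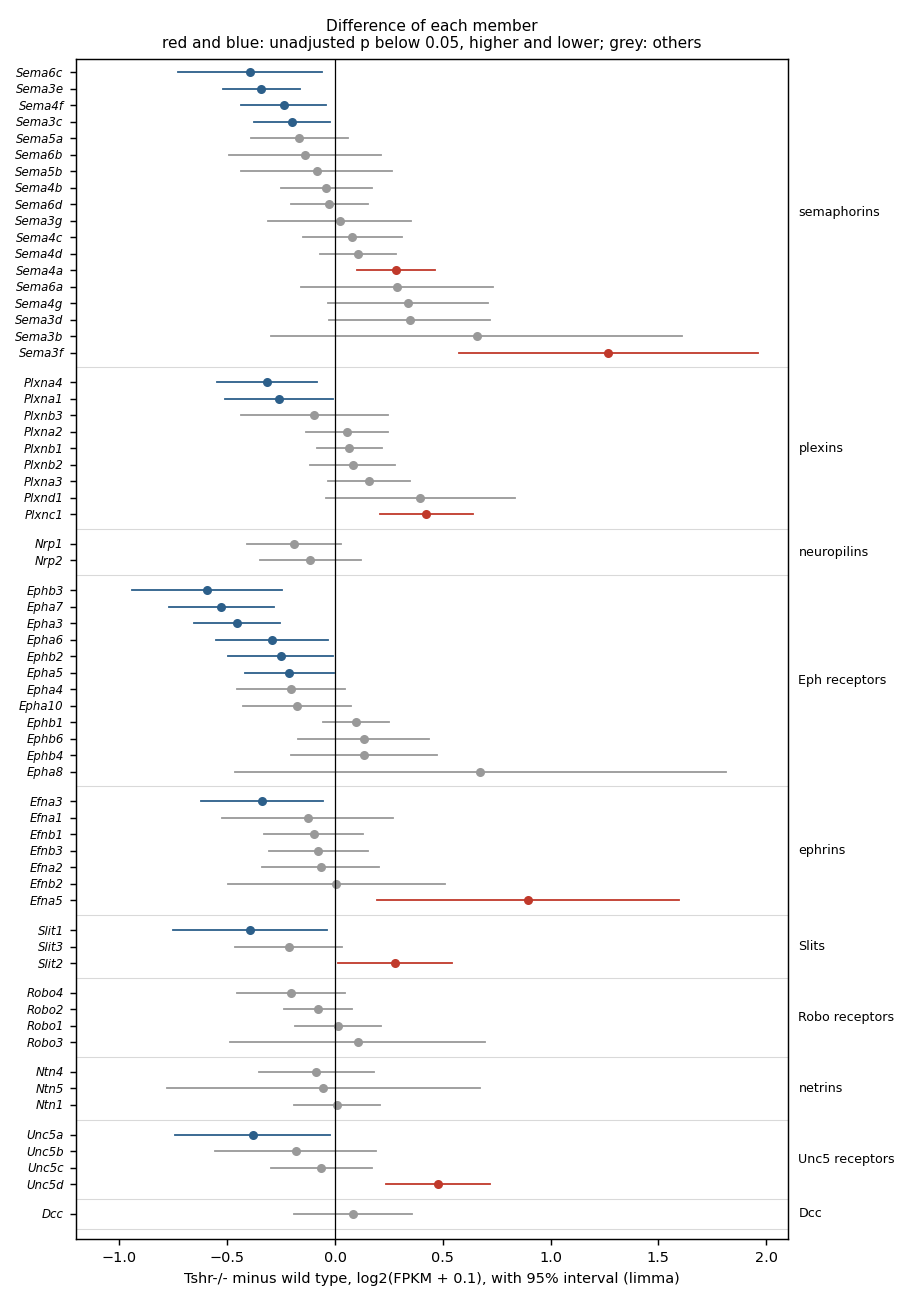
Log2 difference of each of the 63 members, Tshr-/- less wild type, with its 95% interval from limma, grouped by family. Blue and red mark the 15 lower and 6 higher members with an unadjusted p below 0.05 and grey the rest; no member passed after adjustment over all genes.

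Eph receptors are described first. Of the 7 A class members 4 were lower in Tshr-/- at an unadjusted p below 0.05, where the background over all tested genes was 8.38%. A negative difference was found for 6 of the 7 and for 53.3% of all tested genes. Epha3, a receptor for A ephrins, had 1.86, 1.63, 1.92, 2.13 and 1.64 FPKM in Tshr-/- libraries 1 to 5 and 2.61, 2.61, 2.32, 2.81 and 2.38 in wild-type libraries 1 to 5, the order used for all values that follow. All 5 Tshr-/- values were under the lowest wild-type value. The means were 1.84 ± 0.210 and 2.55 ± 0.196 FPKM (SD, n = 5 each, as throughout), and the log2 difference between them was -0.45 ± 0.09 (SE, by limma adjusted p = 0.130). Epha7, a receptor of the same class that also exists in a form without the kinase, had 14.0, 13.4, 16.7, 19.4 and 14.4 FPKM in Tshr-/- and 24.7, 20.3, 22.1, 25.3 and 19.6 in wild type. Again the genotypes did not overlap, though Tshr-/- library 4 came close to wild-type library 5. The log2 difference of Epha7 was -0.53 ± 0.11 (SE, limma adjusted p = 0.136). On mm10, Epha3 lies at chr16:63543538-63864158 on the minus strand and Epha7 at chr4:28813131-28967499 on the plus strand. The antisense gene Gm11915 overlaps the span of Epha7 at 1.91 FPKM, and these libraries do not separate strands.

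Ephb3, a receptor for B ephrins with a known role in excitatory synapse formation, had the largest difference among the Eph receptors at an unadjusted p below 0.05. It had 3.15, 3.03, 5.16, 3.56 and 5.16 FPKM in Tshr-/- and 6.83, 5.67, 6.02, 6.11 and 5.21 in wild type. The genotypes did not overlap, but Tshr-/- libraries 3 and 5 lay just under wild-type library 5. The log2 difference was -0.59 ± 0.16 (SE, limma adjusted p = 0.194). The gene lies at chr16:21204755-21223305 on the plus strand. With the thalamus and habenula list as a covariate the differences of Epha3, Epha7 and Ephb3 were -0.43, -0.45 and -0.48, and with thalamus, choroid plexus and neocortex lists together they were -0.39, -0.43 and -0.46. Those of Epha3, Epha7 and Ephb3 kept an unadjusted limma p below 0.05 under all 23 alternative settings.

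The upstream sequences of these 3 receptor genes, which stood lower together, and of Plxnc1, which stood higher, are shown 5′ to 3′ on the strand of the gene, from RefSeq on GRCm38.p6 (mm10). Each ends at the base before the annotated start, or before the start in the deposited table where that lies further upstream. A set of 5 motifs was searched on both strands, and capitals mark a match.
Epha3, chr16:63864176-63864425, minus strand: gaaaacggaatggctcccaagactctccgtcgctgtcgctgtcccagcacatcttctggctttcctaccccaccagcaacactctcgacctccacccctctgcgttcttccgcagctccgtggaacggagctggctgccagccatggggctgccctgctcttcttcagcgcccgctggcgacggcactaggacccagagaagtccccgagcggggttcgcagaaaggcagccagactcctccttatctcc
Epha7, chr4:28812881-28813130, plus strand: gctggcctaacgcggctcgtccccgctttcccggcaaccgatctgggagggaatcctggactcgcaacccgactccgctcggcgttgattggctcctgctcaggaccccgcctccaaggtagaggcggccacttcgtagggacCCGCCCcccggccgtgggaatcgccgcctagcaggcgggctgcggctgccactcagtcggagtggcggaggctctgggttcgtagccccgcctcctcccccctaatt
Ephb3, chr16:21204545-21204754, plus strand: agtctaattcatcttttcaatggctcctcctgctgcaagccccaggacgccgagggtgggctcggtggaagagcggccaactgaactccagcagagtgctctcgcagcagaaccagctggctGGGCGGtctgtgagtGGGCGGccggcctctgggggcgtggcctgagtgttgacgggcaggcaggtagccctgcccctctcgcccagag
Plxnc1, chr10:94944846-94945095, minus strand: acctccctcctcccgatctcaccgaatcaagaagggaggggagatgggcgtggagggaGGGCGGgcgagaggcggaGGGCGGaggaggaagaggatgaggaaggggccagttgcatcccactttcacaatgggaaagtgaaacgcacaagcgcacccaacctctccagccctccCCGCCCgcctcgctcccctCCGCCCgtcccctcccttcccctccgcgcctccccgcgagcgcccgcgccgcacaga
All capitals are GC boxes (GGGCGG or its reverse complement), 1 in Epha7, 2 in Ephb3, 4 in Plxnc1 and 0 in Epha3. GC boxes stood in the 250 bases before the start for 39 of 53 members with a RefSeq window (73.6%) and for 60.1% of the 10580 tested genes with one. The nuclear receptor half-site AGGTCA stood in 9 of the 53 (17%) against 10.2%, the E-box CACGTG in 2 against 8.52% of all windows, TATAAA in 2 against 5.9% and the cyclic AMP element TGACGTCA in 0 against 2.8%. Each motif was counted on its own, also where matches overlap, and a match describes letters only.

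The other Eph receptors had smaller differences, apart from Epha8. Epha6 had 16.2, 15.5, 20.9, 19.3 and 13.4 FPKM in Tshr-/- and 19.9, 19.1, 20.3, 24.6 and 19.7 in wild type (log2 difference -0.29 ± 0.12 SE, limma adjusted p = 0.340). Tshr-/- libraries 3 and 4 lay among the wild-type values, and with all 3 tissue covariates the difference was -0.14. The antisense gene Gm9017 overlaps Epha6 at 2.89 FPKM. Epha5 ranged from 7.76 to 11.1 FPKM without the receptor and from 10.4 to 12.8 with it (log2 -0.21), and the pseudogene Hmgn2-ps1 lies across its span at 6.47 FPKM on the other strand. Ephb2, which clusters NMDA receptors, ranged from 2.46 to 3.49 against 3.23 to 3.97 FPKM (log2 -0.25). Both ranges overlapped between the genotypes.

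Epha4, the most abundant Eph receptor and known for binding ephrins of both classes, had 42.2, 41.8, 52.2, 56.6 and 37.7 FPKM in Tshr-/- and 55.0, 50.7, 48.6, 60.8 and 48.2 in wild type. Its log2 difference of -0.20 ± 0.11 (SE, limma adjusted p = 0.471) had a 95% interval from -0.45 to 0.05. Tshr-/- libraries 1, 2 and 5 lay below all wild-type libraries and libraries 3 and 4 among them. Epha10 and the kinase-dead Ephb6 were at log2 -0.18 and 0.13, Ephb1 at 0.10 and the vessel receptor Ephb4 at 0.14. Epha8 was the A class exception, at 2.73, 5.2, 1.03, 0.610 and 1.93 FPKM in Tshr-/- against 0.783, 2.08, 0.841, 0.616 and 1.73 in wild type. Its 2 highest values were in Tshr-/- libraries 1 and 2, which were also highest in the thalamus list, and its log2 difference of 0.67 was 0.26 with that list as a covariate.

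Ephrins, the ligands of these receptors, showed 1 member higher and 1 lower at an unadjusted p below 0.05. Efna5, an A ephrin that binds several EphA receptors, had 2.08, 1.94, 1.03, 1.03 and 2.13 FPKM in Tshr-/- and 0.615, 1.16, 0.648, 0.450 and 1.43 in wild type. The genotypes overlapped, since Tshr-/- libraries 3 and 4 lay below wild-type libraries 2 and 5. The log2 difference was 0.89 ± 0.32 (SE, limma adjusted p = 0.287), and it was 0.68 with the thalamus covariate and 0.39 with all 3. Efna3, next to Efnb3 in level, had 33.8, 31.0, 42, 33.7 and 44.2 FPKM in Tshr-/- and 57.3, 40.9, 53.1, 40.3 and 42.6 in wild type (log2 -0.34 ± 0.13 SE, limma adjusted p = 0.311). Tshr-/- libraries 3 and 5 lay among the wild-type values. Efnb3, which acts in spines and in midline guidance, had 50.9, 53.5, 56.2, 59.2 and 60.4 FPKM against 67.2, 58.7, 71.1, 48.3 and 52.8. The values of Efnb3 overlapped, with a log2 difference of -0.08 and a 95% interval from -0.30 to 0.15. The other ephrins, Efna1, Efna2, Efnb1 and Efnb2, had log2 differences between -0.13 (Efna1) and 0.0048 (Efnb2).

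**Figure D3:**
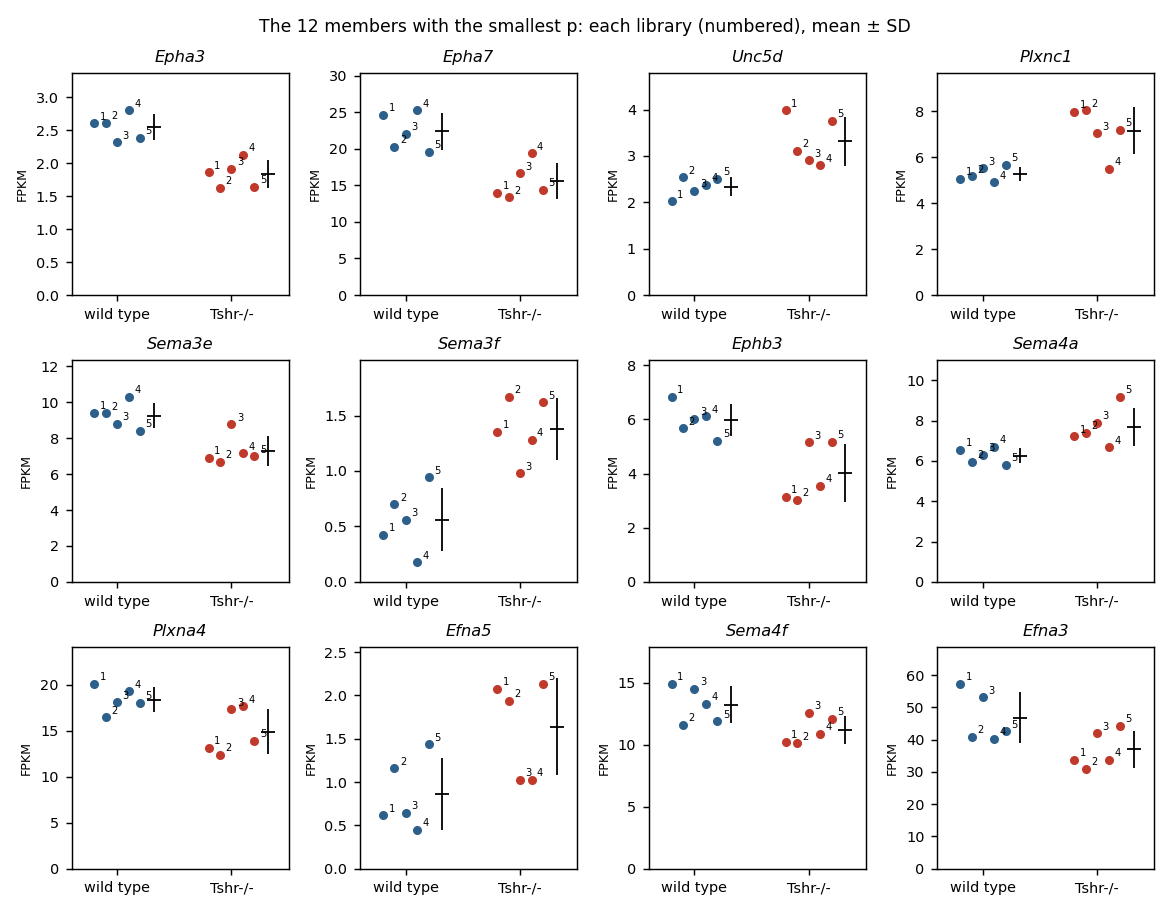
FPKM in each library, numbered by replicate, of the 12 members with the smallest p, with mean ± SD beside the points and all axes from 0. The genotypes do not overlap for Epha3, Epha7, Unc5d, Sema3f and Ephb3 and overlap for the other 7.

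Among the semaphorins, 2 were higher and 4 lower at an unadjusted p below 0.05, out of 18. Sema3f, a secreted repellent known for mossy fibre pruning and for limiting spines through neuropilin 2 and plexin A3, had 1.35, 1.67, 0.980, 1.28 and 1.62 FPKM in Tshr-/- and 0.427, 0.698, 0.562, 0.178 and 0.943 in wild type. Each Tshr-/- library lay above each wild-type library, the closest pair being Tshr-/- library 3 and wild-type library 5. The means of 1.38 ± 0.279 and 0.562 ± 0.287 FPKM differed by 1.27 ± 0.31 in log2 (SE, limma adjusted p = 0.179). The gene lies at chr9:107681500-107710475 on the minus strand. Sema3f was low, with 23 reads in the library that had fewest, and the difference was 0.62 with a pseudocount of 1, 1.09 with the thalamus covariate and 0.69 with all 3 covariates. Its receptors Nrp2 and Plxna3 were at log2 differences of -0.11 and 0.16, with 95% intervals from -0.35 to 0.12 and from -0.03 to 0.35.

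Sema3e, a secreted ligand that can bind plexin D1 without a neuropilin, had 6.92, 6.69, 8.77, 7.16 and 6.99 FPKM in Tshr-/- and 9.40, 9.39, 8.81, 10.3 and 8.41 in wild type. Only Tshr-/- library 3 reached the wild-type range. The log2 difference was -0.34 ± 0.08 (SE, limma adjusted p = 0.173), and it was -0.20 with all 3 covariates. Its receptor Plxnd1, named to complete the pair, had 8.11, 5.33, 8.11, 5.90 and 12.1 FPKM in Tshr-/- and 6.61, 5.02, 6.70, 5.81 and 4.86 in wild type, and its log2 difference was 0.39 ± 0.20 (SE, limma adjusted p = 0.422). Tshr-/- library 5 was the highest for Plxnd1 and also had the highest mean of the neocortex list, and the difference was 0.51 with the thalamus covariate and 0.47 with all 3, which include neocortex. Sema3c had 3.25, 2.80, 2.94, 2.80 and 3.30 FPKM against 3.52, 3.79, 2.98, 3.51 and 3.61 (log2 -0.20), and 3 Tshr-/- libraries lay below every wild-type library.

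Of the membrane-bound semaphorins, Sema4a had 7.23, 7.41, 7.90, 6.67 and 9.17 FPKM in Tshr-/- and 6.55, 5.95, 6.31, 6.69 and 5.82 in wild type (log2 0.28 ± 0.08 SE, limma adjusted p = 0.217). Only Tshr-/- library 4 and wild-type library 4 crossed, by a small margin. Sema4f, found at glutamate synapses, had 10.3, 10.1, 12.6, 10.9 and 12.1 FPKM against 14.9, 11.6, 14.5, 13.3 and 11.9 (log2 -0.24). Sema6c had 5.53, 6.07, 8.33, 7.07 and 8.23 FPKM against 10.3, 7.17, 10.4, 11.0 and 7.67 (log2 -0.39). For Sema4f and Sema6c the genotypes overlapped, and with all 3 covariates the differences were -0.14 and -0.23. Sema6b, the most abundant member of all, had 75.4, 75.1, 103, 84.2 and 119 FPKM against 118, 83.3, 127, 88 and 86.6, which overlapped widely (log2 -0.14, 95% interval from -0.49 to 0.22). Sema3b had 3.33 FPKM in Tshr-/- library 4, where the choroid plexus list summed to 2275 FPKM, and 0.348 to 0.839 FPKM elsewhere. Its log2 difference of 0.66 was 0.17 with all 3 covariates.

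Plexins, the receptors of these ligands, included 1 member that was higher and 2 that were lower at an unadjusted p below 0.05, out of 9. Plxnc1, the receptor of the lipid-anchored semaphorin Sema7a, had 7.97, 8.05, 7.05, 5.5 and 7.21 FPKM in Tshr-/- and 5.06, 5.17, 5.53, 4.91 and 5.68 in wild type. Only Tshr-/- library 4 lay within the wild-type range, and without it the limma adjusted p was 0.0555, the smallest that Plxnc1 had under any setting. Without Tshr-/- library 1 it was 0.342. Leaving out the library that overlaps favours a small p, so the 0.0555 is no separate test. The means were 7.16 ± 1.03 and 5.27 ± 0.321 FPKM, which is 0.42 ± 0.10 apart on the log2 scale (SE, limma adjusted p = 0.162). Plxnc1 lies at chr10:94790866-94944835 on the minus strand. Plxna4, which pairs with neuropilins, had 13.2, 12.3, 17.3, 17.6 and 13.9 FPKM against 20.1, 16.5, 18.1, 19.3 and 18.0 (log2 -0.32 ± 0.10 SE, limma adjusted p = 0.261). Plxna1, the most abundant plexin, had 21, 21.2, 30.1, 24.1 and 25.0 FPKM against 32.6, 24.0, 31.6, 30.1 and 26.6 (log2 -0.26, and -0.12 with all 3 covariates). For both A plexins the values of Tshr-/- libraries 1 and 2 were the lowest of all. Plxna2 and the 3 B plexins had log2 differences between -0.10 (Plxnb3) and 0.08 (Plxnb2).

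Neuropilins did not reach an unadjusted p below 0.05. Nrp1, the co-receptor of several class 3 semaphorins and of vascular growth factor, had 7.03, 7.75, 9.28, 9.66 and 6.96 FPKM in Tshr-/- and 10.2, 8.85, 9.09, 8.51 and 9.44 in wild type. Its log2 difference was -0.19, with a 95% interval from -0.41 to 0.03. Tshr-/- libraries 1, 2 and 5 lay below every wild-type library.

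Of the 3 Slits, 1 was lower and 1 higher at an unadjusted p below 0.05, and of the 4 Robo receptors 0 were. Slit1 had 28.8, 28.5, 48.2, 42.5 and 36.7 FPKM in Tshr-/- and 54.6, 38.1, 50.1, 54.9 and 42.2 in wild type (log2 -0.39 ± 0.16 SE, limma adjusted p = 0.344). Tshr-/- libraries 1 and 2 were lowest, and with the 1 and the 3 covariates the difference was -0.27 and -0.22. Slit2, at a much lower level, ranged from 1.61 to 2.24 FPKM without the receptor and from 1.3 to 1.74 with it (log2 0.28, limma adjusted p = 0.362). Slit3 was at log2 -0.22 (limma adjusted p = 0.446). Robo1, the most abundant Robo receptor, had 9.86, 11.8, 11.9, 11.4 and 8.48 FPKM in Tshr-/- and 10.9, 10.1, 10.2, 10.8 and 10.6 in wild type. Its log2 difference was 0.01 with a 95% interval from -0.19 to 0.21, and Robo2 was at -0.08 (-0.23 to 0.08). The endothelial receptor Robo4 and the divergent Robo3 were at -0.20 (-0.45 to 0.05) and 0.11 (-0.49 to 0.70).

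Of the 4 Unc5 receptors, 1 was higher and 1 lower at an unadjusted p below 0.05, and neither passed after adjustment. Unc5d had 3.99, 3.12, 2.91, 2.79 and 3.76 FPKM in Tshr-/- and 2.03, 2.54, 2.24, 2.38 and 2.50 in wild type. Each Tshr-/- library lay above each wild-type library, and libraries 1 and 5 were highest. The means were 3.31 ± 0.530 and 2.34 ± 0.210 FPKM, which is 0.48 ± 0.11 apart on the log2 scale (SE, limma adjusted p = 0.159), and 0.44 and 0.39 with the 1 and the 3 covariates. Unc5d lies at chr8:28646717-29219636 on the minus strand. Unc5a, the most abundant receptor of its family, had 31.7, 28.4, 47.6, 38.2 and 47.4 FPKM against 61.4, 41.8, 56.2, 47.3 and 42.7 (log2 -0.38 ± 0.16 SE, limma adjusted p = 0.362). Tshr-/- libraries 3 and 5 of Unc5a lay among the wild-type values. Unc5b and Unc5c were at -0.18 and -0.06.

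Dcc, the attractive netrin receptor, had 2.31, 2.17, 3.23, 2.55 and 2.41 FPKM in Tshr-/- and 2.12, 2.48, 1.96, 2.50 and 2.85 in wild type, with a log2 difference of 0.09 and a 95% interval from -0.19 to 0.36. The values of Dcc overlapped throughout. Among the ligands, Ntn4, a netrin of basement membranes, had 2.04, 2.80, 1.92, 2.43 and 2.21 FPKM against 2.11, 2.32, 2.32, 2.31 and 3.06 (log2 -0.09). With all 3 covariates the difference of Ntn4 was -0.28, at an unadjusted p below 0.05 and a limma adjusted p = 0.352. Ntn1, the classical ligand of Dcc, was at 1.98 ± 0.206 and 1.97 ± 0.167 FPKM (log2 0.01, 95% interval from -0.19 to 0.21). Ntn5 was at -0.05 with a wide interval from -0.78 to 0.67.

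**Figure D4:**
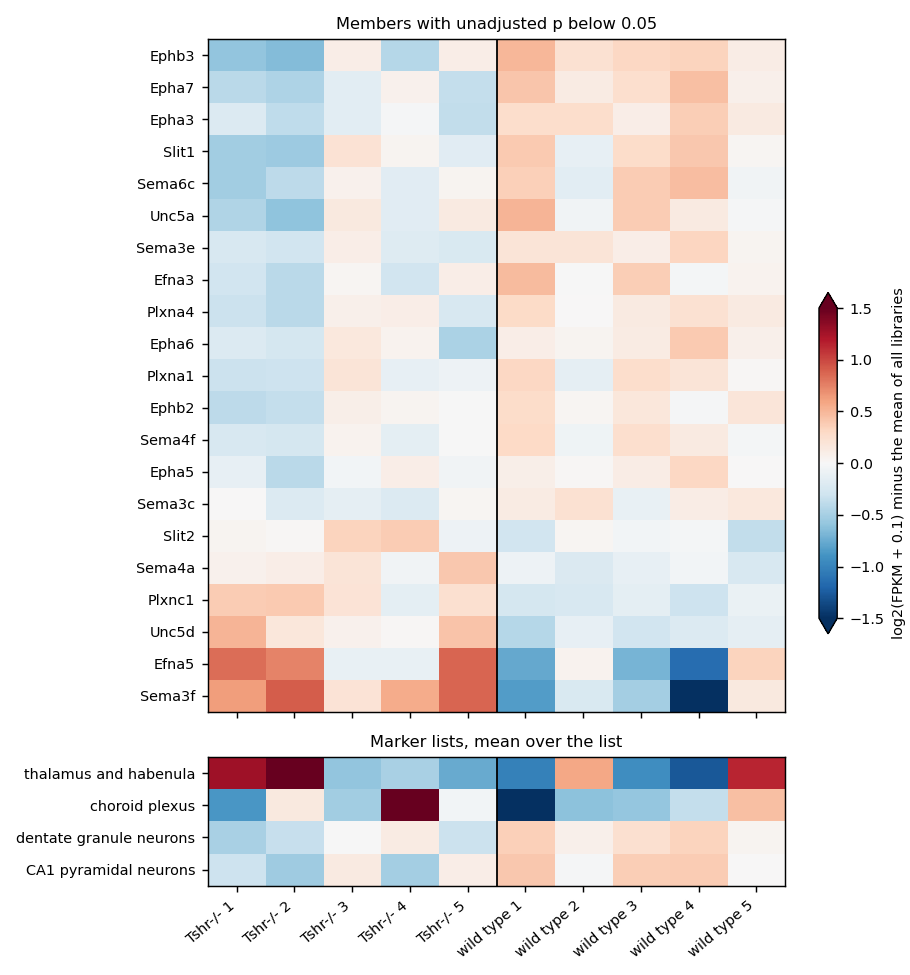
Upper panel: log2(FPKM + 0.1) minus the mean of all libraries for the 21 members with an unadjusted p below 0.05, by library; lower panel: the same for the mean of 4 marker lists, with colours capped at 1.5. Tshr-/- libraries 1 and 2 are lowest in Slit1, Plxna1 and Ephb3 and highest in the thalamus list.

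With marker lists as covariates, differences became smaller in size for 42 members and larger for 21, both with the thalamus list and with all 3 lists. Among those larger with all 3 were Plxnd1 (0.39 to 0.47), Slit2 (0.28 to 0.38), Sema4a (0.28 to 0.34), Unc5b (-0.18 to -0.40) and Ntn4 (-0.09 to -0.28). With the thalamus and habenula list as a covariate, 13 members were lower and 8 higher at an unadjusted p below 0.05 (8.85% and 4.84% of all tested genes). With thalamus, choroid plexus and neocortex lists together 10 were lower and 8 higher (7.92% and 4.33% of all tested genes). In both fits 0 members passed after adjustment. The smallest adjusted p by limma was 0.0667 for Epha7 with the thalamus list, and 0.0831 for both Plxnd1 and Epha7 with the 3 lists. Of the 21 members, 10 kept an unadjusted p below 0.05 in every alternative setting they were tested in, namely Epha3, Epha7, Unc5d, Plxnc1, Sema3e, Sema3f, Ephb3, Sema4a, Plxna4 and Efna5. The part of the lower dentate and CA1 marker levels in these differences was not tested.

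**Figure D5:**
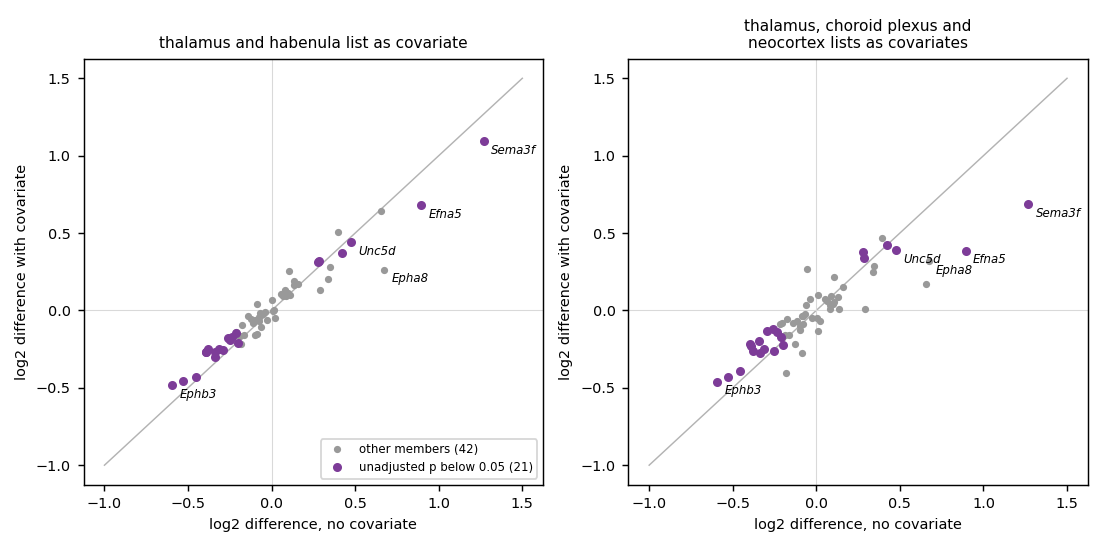
Log2 difference of the 63 members without a covariate against that with the thalamus and habenula list (left) or with the thalamus, choroid plexus and neocortex lists (right) as covariates; the line marks equal values. Sema3f goes from 1.27 to 1.09 and 0.69 and Efna5 from 0.89 to 0.68 and 0.39, and Unc5d from 0.48 to 0.44 and 0.39, while Plxnd1 goes from 0.39 to 0.51 and 0.47.

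Genes that work with these ligands and receptors were read from 5 lists of signalling partners and other cues. Of 89 tested genes, 12 were lower and 4 higher at an unadjusted p below 0.05 (background 8.38% and 4.65%), and limma called 0 after adjustment. Limma voom called 0, with 11 lower and 7 higher at an unadjusted p below 0.05. Their median log2 difference was -0.02, against -0.01 over all tested genes. Levels of the genotypes did not overlap for 2 of the 89 genes that were lower (Rac1 and Sema7a) and 1 that was higher (Wnt5a). The background over all tested genes was 1.76% lower and 0.911% higher, so these counts were near it. By list, 4 of 21 genes of Eph and ephrin signalling were lower at an unadjusted p below 0.05, and 13 by sign alone. The 4 include Chn1, the Rac regulator alpha-chimaerin that acts below EphA4, at 118 ± 16 FPKM against 141 ± 7.28 (log2 -0.26). Sipa1l1, a spine-associated Rap regulator, was at 27.5 ± 4.28 against 34.7 ± 3.40 (log2 -0.34). In Slit and Robo signalling 4 of 13 were lower at an unadjusted p below 0.05, and 9 by sign alone. The 4 include Gpc1, a heparan sulphate proteoglycan that binds Slits, at log2 -0.38, and the Slit-Robo GTPase regulator Srgap3 at -0.24. Rac1, the shared GTPase of these pathways, had 46.6, 45.4, 48.7, 46.0 and 47.5 FPKM against 49.4, 49.6, 49.1, 51.8 and 50.1 and did not overlap, with a log2 difference of -0.09. In semaphorin and plexin signalling 2 were higher and 1 lower of 22 at an unadjusted p below 0.05, and 13 and 9 by sign alone. The 2 higher were the plexin-associated receptor Met at 1.14 ± 0.574 against 0.450 ± 0.129 FPKM (log2 1.08) and Rnd1 at log2 0.57. In netrin and Dcc signalling 1 of 13 was higher at an unadjusted p below 0.05, Ablim1 at log2 0.15. By sign alone 4 of the 13 were higher and 9 lower.

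Other cues held a ligand of a member. Sema7a, the ligand of Plxnc1, had 59.4, 58.7, 62.5, 64.6 and 69.4 FPKM in Tshr-/- and 76.9, 72.0, 75.9, 71.6 and 79.7 in wild type. No Tshr-/- value reached the lowest wild-type value (log2 -0.26 ± 0.06 SE, limma adjusted p = 0.148), opposite in sign to the 0.42 of its receptor. Wnt5a, a Wnt ligand with guidance functions, had 1.80, 2.16, 1.58, 1.83 and 1.84 FPKM against 1.42, 1.55, 1.33, 1.38 and 1.45, with no overlap (log2 0.34 ± 0.09 SE, limma adjusted p = 0.194). Its receptor Ryk was at 5.72 ± 0.399 against 6.49 ± 0.306 FPKM (log2 -0.18). In this list 1 of 20 genes was higher and 3 lower at an unadjusted p below 0.05. The genotypes did not overlap for 1 higher and 1 lower gene of the 20, where the background was 0.911% and 1.76%.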

How the data were processed

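Messenger RNA of the hippocampus was sequenced in 10 libraries with a kit that does not mark strand, per the labels' protocols. HISAT2 2.0.5, featureCounts 1.5.0-p3 and mm10 appear in the submitters' processing notes, with the release of the gene models (not given in the sources used here) unnamed. Values in FPKM were deposited by the authors for 52636 genes. Multiplied by gene length, 100% of the values above 0 fell on whole reads (tolerance 0.01 of a read), which gave the rebuilt reads used for voom and depth.

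Genes with a mean of at least 0.5 FPKM were tested on log2(FPKM + 0.1) with limma 3.58.1 in R 4.3.3, a 2-genotype model with a mean-variance trend, and p-values were adjusted over all 15471 genes (Benjamini-Hochberg, threshold 0.05). The fits were also run on simulated reads, and the share of changed genes they found there is not given here. The members, gene lists and covariates were chosen with earlier results of these data known. Named genes are the members with an unadjusted p below 0.05, with library values for the 16 smallest, the highest member of each family, those nearest the limit and up to 4 genes per partner list; Epha8, Plxnd1, Sema3b and other members given by single values were added after their values were seen. Marker list levels are means of log2(FPKM + 0.1) or sums of FPKM. Alternatives were other pseudocounts (1, 0.01) and filters, 2 scalings, other variance models (statmod 1.5.0), protein-coding genes alone, voom with trimmed-mean scaling, tissue covariates, a replicate block and each library left out.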

Additional observations from a re-analysis of the deposited data

Results flagged for a closer look

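Among 126 sets of 5 values (63 members in 2 genotypes), 6 held a library set apart from the other 4 by a limit (0.71 of the range) that chance passes in about 5% of sets. Sema3b had 3.33 FPKM in Tshr-/- library 4 against 0.552 to 0.839 in the other 4 Tshr-/- libraries. Sema3d had 0.817 FPKM in wild-type library 2 against 0.539 to 0.563. Epha6 had 24.6 FPKM in wild-type library 4 against 19.1 to 20.3. Ntn4 had 3.06 FPKM in wild-type library 5 against 2.11 to 2.32. Sema3e had 8.77 FPKM in Tshr-/- library 3 against 6.69 to 7.16, and this was the only Tshr-/- library within the wild-type range of Sema3e. Sema4d had 8.19 FPKM in wild-type library 4 against 9.45 to 9.93.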

How the results depend on the processing

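Members called after adjustment numbered 0 under all 23 alternatives. The count of called genes among all tested was 2, and 14 with a pseudocount of 0.01, 4 with no filter, 13 with a filter at 1 FPKM, 13 with median-ratio scaling, 4 with quantile normalization, 1 with no variance trend, 13 with robust empirical Bayes, 17 among protein-coding genes, 6 with limma voom, 14 with the thalamus covariate and from 0 to 9 with 1 library left out. Without 1 library, the members at an unadjusted p below 0.05 numbered 5 to 16 lower and 5 to 8 higher. Under the other alternatives they stayed within 1.5 times of 15 and 6. Of 643 values of the 28 named members, 5 reversed in sign. Robo1 ranged from -0.027 to 0.092 with 1 library left out and was below 0 when Tshr-/- library 2 (-0.025), 3 (-0.027), 4 (-0.014) was dropped and when wild-type library 2 was (-0.0027). Dcc ranged from -0.0022 (without Tshr-/- library 3) to 0.151; the cause was not tested. No scaling moved the median of all genes by over 0.1. Sema3f was not tested with the filter at 1 FPKM. With the replicate number as a block, 16 members were lower and 7 higher at an unadjusted p below 0.05 (8.58% and 5.40% of all tested genes). In that fit 0 members were called and 3 genes in all. Deviations of same-numbered libraries correlated from -0.065 to 0.296. Of the 5 numbers, 2 matched their own number best, so that the numbers were not taken as pairs. Members with few reads, such as Sema3f and Sema3b, have wide intervals.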

Other observations

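Library-to-library spread within a genotype had a median of 0.198 over the members, as the SD of log2(FPKM + 0.1), against 0.160 over all tested genes and 0.142 over protein-coding ones. The widest were Epha8 at 0.941, Sema3b at 0.765, the netrin Ntn5 at 0.593, Efna5 at 0.565, Sema3f at 0.549 and Robo3 at 0.487. Among the tightest were the receptors Ephb1 at 0.105, Plxnb1 at 0.108 and Robo2 at 0.109. Robo3 ranged from 1.86 to 5.77 FPKM over all libraries, both extremes being wild type. Some members are neighbours on the chromosome. Robo4 and Robo3 lie 554 bases apart on chromosome 9 on opposite strands, and Sema3b and Sema3f lie 72271 bases apart on the same chromosome, at log2 differences of 0.66 and 1.27. Efna1 and Efna3 lie 32757 bases apart on chromosome 3, at -0.13 and -0.34. Ephb2 and Epha8 lie 93431 bases apart on chromosome 4, at -0.25 and 0.67.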
